A study of Homo sapiens with 2 samples.

Results

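MDA-MB-453 is a human breast cancer cell line, and the cells described here are those that the deposited cell table calls G1, the phase between cell division and the next round of DNA synthesis. The table held 5985 cells, of which 3831 were called G1: 1032 of 2822 in the vehicle library and 2799 of 3163 in the cytokine library. The wild-type line, labelled triple-negative, received water, the vehicle, or IL1β together with TNFα (10 ng/ml) for 24 h. Each condition was 1 culture, read as 1 droplet library of transcript 3′ ends (10x Genomics), and the comparison asked how the cytokine-treated culture differed from the untreated one once both were restricted to cells in the same called phase. No difference between the cultures could be tested, since cells of 1 culture are not replicates. Intervals given below are exact 95% intervals that cover the counting of unique molecular identifiers (UMIs) only, and they leave out the spread between cultures and between cells.

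In G1 a cell grows and decides whether to divide again. Cyclin D with CDK4 or CDK6, and then cyclin E with CDK2, phosphorylate the retinoblastoma protein, which frees E2F factors to switch on the genes of DNA replication. Genes of mitosis are switched on later, by MYBL2 and FOXM1, and cells that leave the cycle keep both programmes off through the DREAM complex. IL1β and TNFα bind different receptors on the cell surface, but both activate IκB kinase, and the NF-κB dimers that are set free enter the nucleus and bind short κB elements in the promoters of cytokine, acute phase and feedback genes.

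The promoters of genes with large differences between the libraries are shown here because both kinds of element can be read in them. RefSeq sequences (GRCh38.p14) of the 250 bases before each gene's start were searched on both strands. The κB consensus was present in 9.57% of 27305 promoters, in 11.5% of the 7186 that matched a gene measured in G1 cells, in 18.0% of the 295 that matched a gene at least 2-fold higher in the cytokine library and in 10.3% of the 301 that matched a gene at least 2-fold lower. It was found in 5 of 14 measured MHC class I genes with a promoter in the table, in 4 of 9 cytokines and chemokines, in 6 of 24 NF-κB subunits and feedback genes, and in 2 of 9 acute phase genes. Genes were then taken from the 12 largest ratios and a fixed set of 12, where they had a ratio above 0 and a promoter in the table. The fixed set holds genes around the kynurenine pathway together with S100A8, S100A9, CCL2 and NFKBIA. Its members IDO1, AFMID, SLC7A5 and CYP1B1, with ratios below 0, were not examined. Of the genes examined LTB, CFB, LCN2, IL32 and NFKBIA held a match. Their 250 bases follow, with the match in capitals, at chr6:31582426-31582675 (minus strand) for LTB, chr6:31945845-31946094 (plus) for CFB, chr9:128149203-128149452 (plus) for LCN2, chr16:3065153-3065402 (plus, with 2 matches that overlap) for IL32 and chr14:35404750-35404999 (minus) for NFKBIA.
LTB: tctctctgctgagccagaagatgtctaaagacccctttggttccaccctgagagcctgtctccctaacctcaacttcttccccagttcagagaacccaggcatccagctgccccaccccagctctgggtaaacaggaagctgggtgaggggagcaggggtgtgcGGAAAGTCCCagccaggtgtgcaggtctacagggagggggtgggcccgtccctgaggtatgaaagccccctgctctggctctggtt
CFB: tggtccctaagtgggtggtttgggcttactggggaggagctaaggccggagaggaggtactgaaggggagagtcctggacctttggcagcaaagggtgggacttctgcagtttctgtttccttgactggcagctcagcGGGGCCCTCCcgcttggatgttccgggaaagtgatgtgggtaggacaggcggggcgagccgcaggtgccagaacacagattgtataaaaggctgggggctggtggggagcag
LCN2: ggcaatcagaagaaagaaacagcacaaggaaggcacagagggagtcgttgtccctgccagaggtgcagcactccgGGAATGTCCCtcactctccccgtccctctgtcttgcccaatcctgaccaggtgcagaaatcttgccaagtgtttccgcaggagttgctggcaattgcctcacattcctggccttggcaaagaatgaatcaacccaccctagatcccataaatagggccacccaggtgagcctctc
IL32: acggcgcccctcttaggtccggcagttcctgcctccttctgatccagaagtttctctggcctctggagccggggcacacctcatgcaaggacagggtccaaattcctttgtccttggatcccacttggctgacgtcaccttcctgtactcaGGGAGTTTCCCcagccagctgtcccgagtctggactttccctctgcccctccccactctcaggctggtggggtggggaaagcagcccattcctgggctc
NFKBIA: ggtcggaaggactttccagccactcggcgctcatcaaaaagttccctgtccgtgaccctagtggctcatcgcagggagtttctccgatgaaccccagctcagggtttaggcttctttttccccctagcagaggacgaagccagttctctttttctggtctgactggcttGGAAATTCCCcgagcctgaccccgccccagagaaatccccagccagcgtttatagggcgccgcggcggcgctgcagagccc
The match began 86 bases before the start of LTB, 112 before that of CFB, 175 before that of LCN2, 99 before that of IL32 and 81 before that of NFKBIA. No match lay in these windows of S100A8, S100A9, CXCL8, SERPINA3, TNF, S100A7, TDO2, KMO, KYNU or QPRT, which says only that those letters are not in the window.

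The letters TTTGAA, the core of the cell cycle gene homology region that is found in many promoters of mitosis genes, were searched on both strands in the same way. They were present in 13.6% of all promoters and in 7.72% of those of genes measured in G1 cells, and in 15.6% of those of lower and 10.8% of those of higher genes. They were in 13 of 37 promoters of measured mitosis genes outside the phase lists (35.1%), and in 2 of 38 of measured replication genes (5.26%). MKI67 at chr10:128126424-128126673 (minus strand) and CDKN3 at chr14:54396757-54397006 (plus) were the genes that held a match among those of the 12 lowest ratios with a promoter in the table, with 2 and 1 matches.
MKI67: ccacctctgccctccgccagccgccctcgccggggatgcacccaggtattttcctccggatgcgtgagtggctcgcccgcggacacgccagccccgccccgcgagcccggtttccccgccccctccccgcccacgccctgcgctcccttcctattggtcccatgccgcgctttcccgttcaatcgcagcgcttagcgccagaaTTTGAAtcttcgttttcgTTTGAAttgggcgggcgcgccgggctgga
CDKN3: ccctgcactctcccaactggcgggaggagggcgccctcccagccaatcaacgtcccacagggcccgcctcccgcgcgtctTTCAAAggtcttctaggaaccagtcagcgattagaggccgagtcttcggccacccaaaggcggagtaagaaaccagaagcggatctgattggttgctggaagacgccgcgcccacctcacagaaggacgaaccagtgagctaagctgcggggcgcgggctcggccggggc
The first match lay 47 bases before the start of MKI67 and the match of CDKN3 170 bases before its start, read on the other strand as TTCAAA. A match describes the letters and not a bound site.

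The phase call rested on measured values, so they are described before the results. In the deposited table a cell was G1 where both its S score and its G2/M score were below 0, which held for all 3831 cells and for no other cell. G1 cells made up 36.6% of the vehicle library (34.8% to 38.4%) and 88.5% of the cytokine library (87.3% to 89.6%). S cells numbered 1273 and 324, and G2/M cells 517 and 40. Within G1 the scores were not alike. The median S score was -0.19 in vehicle and -0.36 in cytokine G1 cells, and the median G2/M score -0.83 and -1.13. Just inside the limit, within 0.1 of it, lay 206 vehicle G1 cells (19.96%) and 48 cytokine G1 cells (1.71%), and just outside it 135 and 46 cells called S or G2/M. A larger share of the vehicle G1 cells thus lay near the edge of the call.

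**Figure D1:**
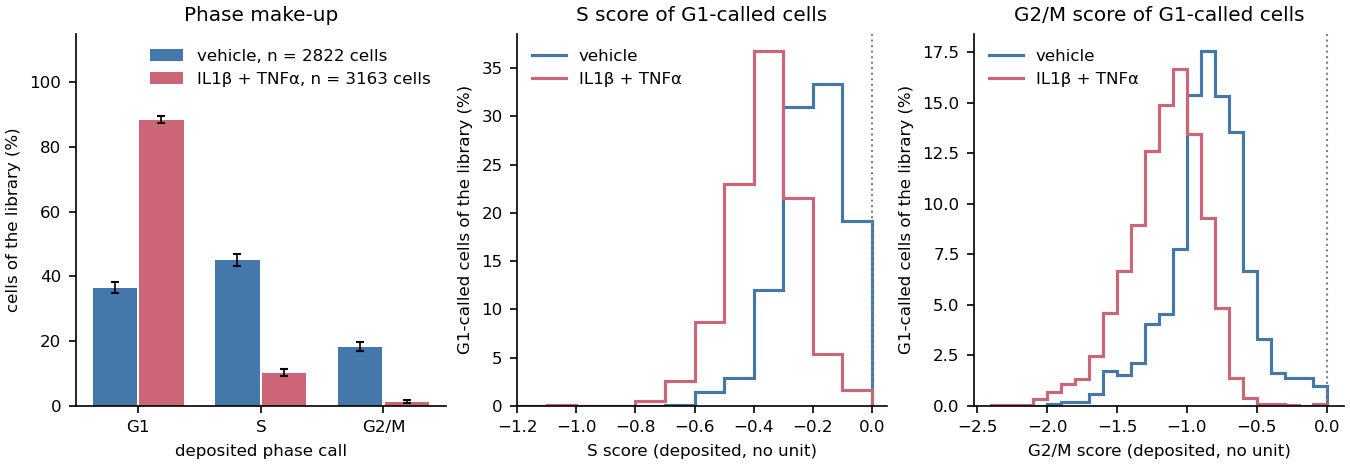
Left, percent of cells of each library in each deposited phase call, with exact 95% binomial intervals as bars. Middle and right, the deposited S and G2/M scores (no unit) of G1 cells as a percent of the G1 cells of each library in steps of 0.1, with the limit of 0 dotted. The cytokine G1 cells lie further from the limit, at median S scores of -0.36 against -0.19.

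Cytokine G1 cells held slightly more UMIs per cell. The vehicle G1 cells summed to 20051561 UMIs and the cytokine G1 cells to 61552342, with medians of 18486 and 21408 UMIs and of 3759 and 3913 genes per cell. The median mitochondrial share was 6.40% and 6.50%, while 31.2% and 26.9% of the UMIs came from genes of ribosomal proteins. The part of these differences in the results was not tested. Only 8 barcodes occurred in both libraries, 3 of them as G1 cells in both. The epithelial and luminal genes FOXA1, KRT8, KRT18, EPCAM, XBP1 and ERBB2 were all measured, ERBB2 at 153 and 214 CPM (UMIs scaled to a total of 1000000). ESR1 and PGR were not among the genes of the matrix, so no level can be given for them. Of 30 markers of lymphoid, myeloid, stromal, basal and erythroid cells 8 were in the matrix, and COL1A1 (21.2 and 20.4 CPM) was the only one at 5 CPM or more.

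UMIs were summed over the G1 cells of each library, converted to CPM, and compared as the log2 ratio of the cytokine to the vehicle library. A gene was measured if either library reached 5 CPM, and it was called higher or lower where the ratio was at least 2-fold and its interval lay on the same side of 0. Of 9005 measured genes 400 were higher (4.44%) and 399 lower (4.43%) in cytokine G1 cells, and the measured genes had a median log2 ratio of -0.15. With all cells of each library, 394 of 9192 were higher (4.29%) and 688 lower (7.48%). The balance of higher and lower genes in G1 depended on the scaling. Of the genes called, 50.1% were higher by CPM, 65.7% by TMM scaling (520 higher, 272 lower), 66.4% by median of ratios (526 and 266) and 37.9% once ribosomal and mitochondrial genes were taken out of the totals (389 and 637). TMM and median of ratios moved the log2 ratio of every gene up by 0.16 and 0.17, while the smaller totals shifted it by -0.0963, so a ratio can change sign where it lies within the first shifts below 0 or within the last above 0. The ratios below are to be read against the median of -0.15.

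Replication genes were lower in cytokine G1 cells although both sets of cells had been called G1. These genes copy DNA, supply its building blocks or license its origins. The 43 counted here are those measured outside the S and G2/M gene lists assumed for the phase call. The genes that the deposited call used are not given in the sources used here. Whether it used any of the 43 is therefore not known. Of the 43, 30 were lower and 0 higher, 42 had a ratio below 0, and the median log2 ratio was -1.49, beside 4.43% of all genes lower and a median of -0.15. A gene can be measured through the library where it is high, and 21 of the 43 reached 5 CPM only in vehicle, so these had to have a ratio below 0. Of the 22 that reached it in both libraries 9 were lower and 0 higher. PCLAF, the PCNA clamp-associated factor, was at 506 CPM in vehicle and 51.1 CPM in cytokine G1 cells, which is 9.89-fold lower (log2 ratio -3.31, -3.36 to -3.25). MYBL2, the B-Myb transcription factor that carries the programme on into mitosis, was at 130 and 10.4 CPM (-3.65, -3.77 to -3.52). Thymidine kinase, TK1, which salvages thymidine for DNA synthesis, was at 62.7 and 6.90 CPM (-3.18, -3.35 to -3.02). The DNA repair genes BRCA2 (7.48 and 0.731 CPM) and FANCD2 (6.08 and 0.780 CPM) and the MYC-regulated CDCA7L (5.09 and 0.422 CPM) were low in both libraries and lower in the cytokine library. Chosen after their values were seen, the helicase subunits MCM3 (30.5 and 10.2 CPM) and MCM7 (31.6 and 10.0 CPM) and the factor E2F1 (12.7 and 3.51 CPM) were lower as well. Genes at the weak end of the list were the dUTPase DUT, at 199 and 132 CPM, and the maintenance methyltransferase DNMT1, at 80.1 and 58.4 CPM, which did not reach 2-fold. FAM111A was the measured member with a ratio above 0 (12.3 and 15.7 CPM).

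Mitosis genes differed by more. Of 44 measured outside the phase lists 31 were lower and 0 higher, 41 had a ratio below 0, and the median log2 ratio was -2.10. Of the 44, 20 reached 5 CPM only in vehicle, and of the 24 that reached it in both libraries 11 were lower. TROAP, a spindle-associated protein, had the lowest ratio of any gene at 20 CPM or more, at 43.2 CPM in vehicle and 2.68 CPM in cytokine G1 cells (-4.01, -4.26 to -3.77). The kinetochore gene CENPW stood at 142 and 9.89 CPM (14.3-fold lower), and PTTG1, which encodes securin, at 173 and 12.7 CPM (13.7-fold lower). CDKN3, a phosphatase of CDK1 and CDK2, was at 114 and 9.88 CPM (-3.52, -3.66 to -3.39). FOXM1, the transcription factor of late cell cycle genes, was at 25.3 and 2.39 CPM (-3.40, -3.68 to -3.14), and CENPM, another kinetochore gene, at 58.0 and 7.67 CPM (-2.92, -3.08 to -2.76). In these genes the separation between libraries was at least 7.56-fold. Members at low levels were lower too, with PBK, DEPDC1, ASPM and KIF4A at 5.54, 7.08, 10.5 and 8.33 CPM in vehicle and 0.244, 0.341, 0.536 and 0.552 CPM in cytokine G1 cells. At the highest level of the list stood TUBA1B, an alpha tubulin, at 934 and 186 CPM (-2.33). Chosen after its value was seen, STMN1, which depolymerises microtubules, was at 646 and 87.4 CPM, 7.38-fold lower. Not every gene that peaks in mitosis followed, and KIF22 (97.0 and 101 CPM), the beta tubulin TUBB (263 and 315 CPM) and the checkpoint gene BUB3 (131 and 206 CPM) had ratios above 0.

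The genes of the S and G2/M lists assumed for the phase call are described without further weight, since the call may have used them. All 33 measured genes of the S list and all 35 of the G2/M list had ratios below 0 within G1, with 18 and 23 lower and medians of -1.30 and -1.55. Values ranged from TOP2A, a topoisomerase, at 7.78 and 0.487 CPM, MKI67, the Ki-67 antigen, at 33.5 and 2.71 CPM, CENPF at 51.0 and 4.81 CPM and BIRC5, survivin, at 48.0 and 5.49 CPM, to CBX5 at 86.4 and 82.3 CPM. PCNA, the sliding clamp, was close between the libraries in G1, at 35.5 and 24.2 CPM (-0.55, against -1.51 over all cells).

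**Figure D2:**
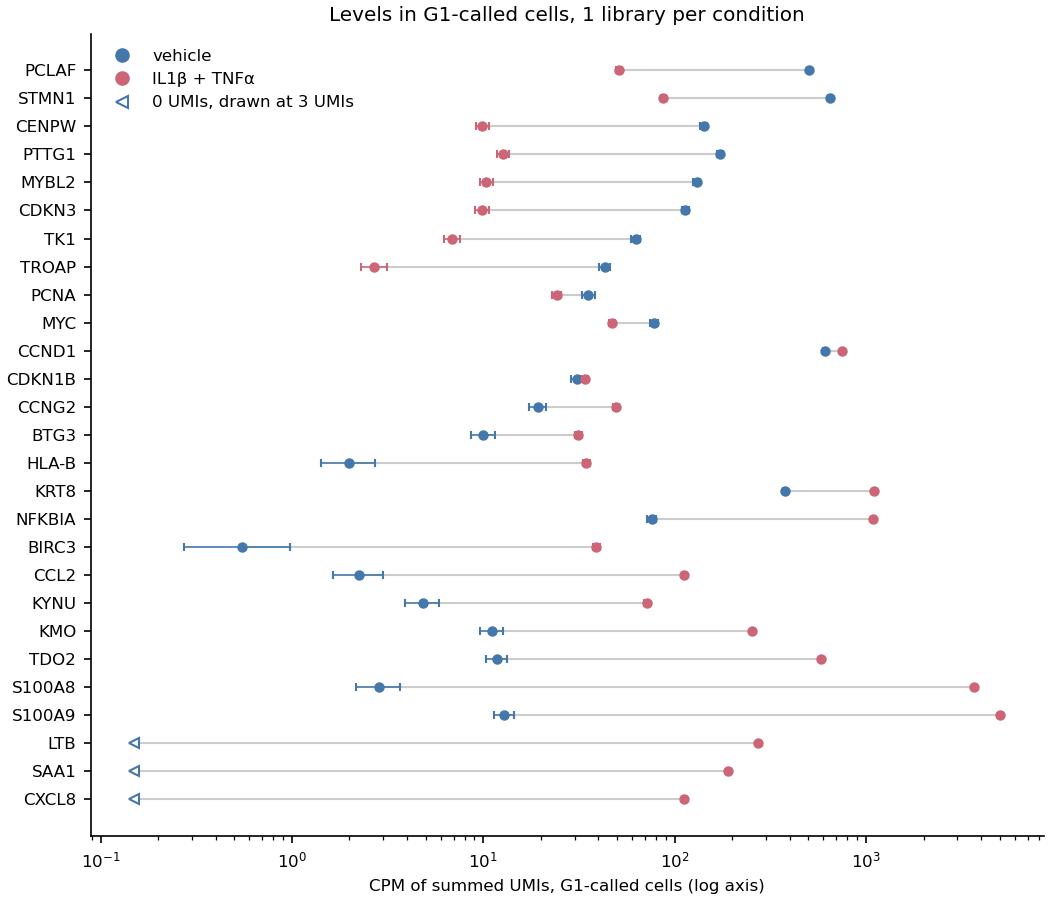
CPM of summed UMIs in G1 cells of the vehicle library and of the cytokine library (log axis) for 27 genes, with bars for the exact 95% Poisson interval of the count. Cell cycle genes such as PCLAF (506 and 51.1 CPM) lie to the left in the cytokine library, CCND1 and CDKN1B nearly coincide, and inflammatory genes lie to the right. Open triangles are genes without a UMI in vehicle G1 cells, drawn at 3 UMIs.

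The S cells of both libraries gave a second comparison at a matched phase, and the cell cycle genes differed less there. In S cells 295 of 9168 measured genes were higher (3.22%) and 196 lower (2.14%). Over the same genes, the median log2 ratio of the replication list was -0.39 in S cells and -1.49 in G1 cells, and that of the mitosis list -0.64 and -2.10. PCLAF was at 846 CPM in vehicle and 622 CPM in cytokine S cells, and the log2 ratio in G1 lay 2.86 below that in S (difference -2.86, -2.94 to -2.79, normal approximation to counting error). CENPW, at 150 and 83.2 CPM in S cells, gave a difference of -2.99 (-3.16 to -2.81), and PTTG1, at 57.5 and 16.6 CPM, one of -1.98 (-2.27 to -1.69). In the 40 cytokine G2/M cells PCLAF had a log2 ratio of -0.03 (-0.12 to 0.06), and the medians of both lists were -0.02 and -0.00. The calls do not limit the scores alike. S cells all had an S score above 0 and G2/M cells a G2/M score above 0, which limits these from below in both libraries. G1 scores are limited only from above, and the cytokine G1 scores lay lower. A smaller difference in S and G2/M cells can thus be set in part by the call, and that part was not tested. The phases are called in the same 2 libraries, so these differences too rest on 1 culture a side.

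Weighting the vehicle phases to the phase shares of the cytokine library separated the ratio over all cells into a step made by the shares and a step that remained at equal shares. For the 43 replication genes the median log2 ratio over all cells was -1.77, the step from the shares had a median of -0.78, and the step at equal shares one of -1.03. For the 44 mitosis genes these medians were -2.45, -0.83 and -1.35. Interferon-stimulated genes were barely moved by the shares (medians 1.11, -0.00 and 1.11), and cholesterol and fatty acid genes were moved down by them (0.18, -0.11 and 0.35). The shares themselves are values of 1 culture each.

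**Figure D3:**
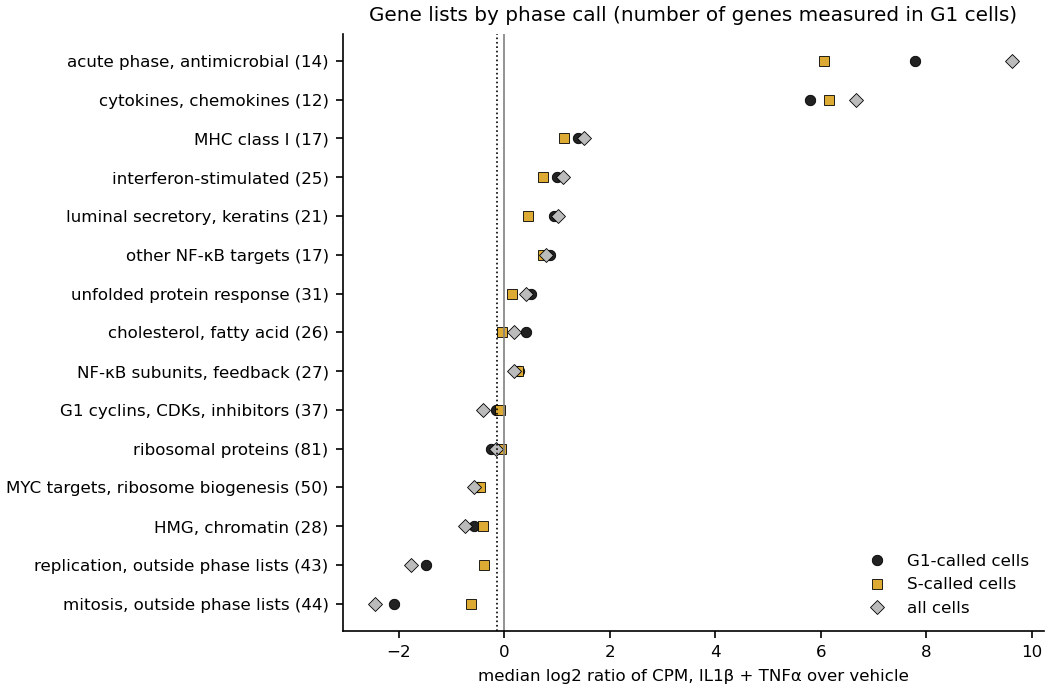
Median log2 ratio of CPM, cytokine over vehicle, of 15 gene lists in G1 cells (circles), S cells (squares) and all cells (diamonds), each over the genes measured in G1 cells, whose number stands in parentheses. The dotted line is the median of all measured genes in G1 cells (-0.15). The replication and mitosis lists lie at -1.49 and -2.10 in G1 cells and at -0.39 and -0.64 in S cells.

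Genes that govern G1 itself differed in both directions. Of 37 measured cyclins, CDKs, inhibitors and E2F partners 3 were higher and 6 lower, beside 4.44% and 4.43% of all genes, with a median log2 ratio of -0.16. All 6 lower genes were among the 8 that reached 5 CPM only in vehicle. BTG3, an antiproliferative gene, was at 9.97 and 31.4 CPM (3.15-fold higher, log2 ratio 1.65, 1.44 to 1.87), the cyclin-like gene CCNG2 at 19.3 and 49.6 CPM (2.57-fold higher) and MXD4, an antagonist of MYC, at 58.8 and 133 CPM. LIN9, a subunit of the complex that B-Myb and FOXM1 use, was at 5.98 and 1.25 CPM, SKP2, which targets the inhibitor p27 for degradation, at 10.1 and 3.95 CPM, and CDK6 at 5.83 and 2.45 CPM. Cyclin D1, CCND1, which carried the list by level, was at 608 and 747 CPM (0.30). Chosen after their values were seen, the inhibitor CDKN1A (17.3 and 16.3 CPM) and the gene RB1 (26.4 and 23.6 CPM) had ratios whose sign depends on the scaling, the inhibitor CDKN1B was at 31.0 and 33.9 CPM (0.13), and MYC was at 77.8 and 47.0 CPM (-0.73).

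Growth genes differed by smaller steps. The list of MYC targets and ribosome biogenesis had 50 measured members, of which 7 were lower and 0 higher, beside 4.43% and 4.44% of all genes. Of the 50, 46 had a ratio below 0, and the median was -0.50. The largest were TCOF1, which helps to transcribe ribosomal RNA, at 21.5 and 6.86 CPM (-1.65), HEATR1 at 14.4 and 6.06 CPM, LYAR at 34.3 and 14.6 CPM and POLR1B, a subunit of RNA polymerase I, at 8.33 and 3.62 CPM. None of 81 ribosomal protein genes passed in either direction, 70 of them had a ratio below 0, and their median was -0.25. Several chromatin proteins were lower as well. Of 28 measured genes 6 were lower and 0 higher (median -0.57), among them HMGN2 (1751 and 456 CPM), the histone variant H2AFZ (2351 and 646 CPM), HMGB1 (2214 and 772 CPM), the lamin LMNB1 (19.6 and 6.81 CPM) and the histone gene HIST1H4C (179 and 53.7 CPM).

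Inflammatory secreted proteins showed the widest separation in the other direction. Of 14 measured acute phase and antimicrobial genes 13 were higher and 0 lower, beside 4.44% of all genes higher, and 7 of them had no UMI in vehicle G1 cells. The count is in part set by what was measured, since 11 of the 14 reached 5 CPM only in the cytokine library, and 2 of the 3 that reached it in both were higher. The median log2 ratio was 7.78 with those 7 set to 3 UMIs, and 7.48 with them at the lower end of their interval. The calprotectin subunit S100A9 was at 12.9 and 5027 CPM (391-fold higher), and its partner S100A8 at 2.84 and 3666 CPM (1289.7-fold higher). Their vehicle UMIs came from few cells, and without the 10 cells with most UMIs of the gene in each library S100A9 was at 2.92 and 4866 CPM and S100A8 at 0.756 and 3493 CPM. CFB, complement factor B, had 1 UMI in vehicle G1 cells and 71.2 CPM in cytokine G1 cells (log2 ratio 10.48, 8.001 to 15.78). The genes without a vehicle UMI were SAA1, an acute phase apolipoprotein, at 191 CPM and at least 1039-fold higher, the protease inhibitors PI3 (72.3 CPM, at least 393-fold) and SERPINA3 (57.2 CPM, at least 311-fold), lipocalin 2, LCN2 (46.1 CPM, at least 251-fold), S100A7 (23.4 CPM, at least 127-fold), SAA2 (15.8 CPM) and S100A12 (8.55 CPM). S100A7 rested on few cells, since 161 cytokine G1 cells held its 1440 UMIs, 77.1% of them in 10 cells, and it was at 5.38 CPM without those. These bounds are the lower ends of the exact intervals. SAA1 and SAA2 are near-identical neighbours, so how reads were split between them is uncertain. S100P was the exception. It was at 26.2 and 15.9 CPM, but 89.2% of its UMIs in vehicle G1 cells came from 10 cells, and without the 10 cells with most of its UMIs in each library it was at 2.87 and 9.69 CPM.

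Cytokine and chemokine genes were higher in 11 of 12 cases, with 0 lower and a median log2 ratio of 5.79, or 5.64 with the 5 genes at 0 in vehicle set at their bound. Of the 12, 8 reached 5 CPM only in the cytokine library and so had to have a ratio above 0, and 3 of the 4 that reached it in both were higher. LTB, which encodes lymphotoxin beta, had no UMI in vehicle and 272 CPM in cytokine G1 cells (at least 1480-fold higher). The neutrophil chemokine CXCL8 was at 0 and 112 CPM (at least 606-fold), TNF itself at 0 and 37.2 CPM (at least 202-fold), IL32 at 0 and 21.0 CPM (at least 114-fold) and CXCL10 at 0 and 9.13 CPM (at least 49.5-fold). CCL2, a monocyte chemokine, was at 2.24 and 112 CPM, 50.04-fold higher (5.65, 5.22 to 6.10), and its 45 vehicle UMIs came from 9 cells. CXCL2 had 0.0499 CPM in vehicle, which is 1 UMI, and 11.8 CPM in the cytokine library. MIF, at 6263 and 4326 CPM, was the measured member with a ratio below 0 and carried the list by level.

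NF-κB genes themselves split into members that differed and members that did not. Of 27 measured subunits, kinases and feedback inhibitors 12 were higher and 0 lower, beside 4.44% of all genes higher. Of the 27, 10 had ratios below 0, and the median was 0.28. The count is in part set by what was measured, since 6 reached 5 CPM only in the cytokine library and so had to have a ratio above 0. Of the 21 that reached it in both libraries 6 were higher. Feedback inhibitors and the non-canonical subunits had the largest ratios. TNFAIP3, a deubiquitinase, was at 0.0499 and 8.09 CPM (log2 ratio 7.34, 4.86 to 12.65, 1 UMI in vehicle), the RNase ZC3H12A at 6.03 and 90.6 CPM, and NFKBIA, the inhibitor IκBα, at 75.9 and 1082 CPM (14.3-fold higher, log2 ratio 3.83, 3.76 to 3.91). Of the non-canonical subunits, RELB was at 0.299 and 28.1 CPM (6.55) and NFKB2 at 3.69 and 42.9 CPM (3.54), and the atypical inhibitor NFKBIZ was at 1.496 and 11.8 CPM. Chosen after their values were seen, RELA (20.7 and 21.5 CPM) and NFKB1 (18.7 and 22.7 CPM), the canonical subunits, did not reach 2-fold. Of 19 measured TRAF and death genes 3 were higher and 1 lower. Of the 19, 2 reached 5 CPM only in the cytokine library and 2 only in vehicle, and 2 of the other 15 were higher and 0 lower. BIRC3, the apoptosis inhibitor cIAP2, was at 0.549 and 39.0 CPM (6.15), TRAF3 at 8.38 and 24.5 CPM, CFLAR, an inhibitor of caspase activation, at 11.7 and 23.4 CPM, and TRAF5 at 5.88 and 2.58 CPM. Of 17 other NF-κB targets 7 were higher and 0 lower (median 0.86), led by the factor IRF1 (1.15 and 21.6 CPM), the manganese superoxide dismutase SOD2 (12.5 and 144 CPM) and the adhesion molecule ICAM1 (1.40 and 12.4 CPM). Of these 17, 3 reached 5 CPM only in the cytokine library, and 4 of the other 14 were higher.

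Receptors for the 2 cytokines were measured at modest levels. The receptor of IL1β, IL1R1, was at 107 CPM in vehicle and 38.4 CPM in cytokine G1 cells, 2.79-fold lower (-1.48, -1.56 to -1.39), and IRAK1, the kinase that acts below it, at 71.5 and 34.5 CPM, and these were the 2 lower genes of the list. The main receptor of TNFα, TNFRSF1A, was at 40.3 and 48.8 CPM (0.28). TNFRSF12A, the receptor of TWEAK, was at 202 and 527 CPM and was the 1 of 9 measured receptor and adaptor genes that was higher. The counts of 1 higher and 2 lower stand beside 4.44% and 4.43% of all genes.

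Antigen presentation was higher as a group. Of 17 measured MHC class I genes 11 were higher and 0 lower, beside 4.44% and 4.43% of all genes. All 17 had a ratio above 0, and the median was 1.40. Of the 11 that reached 5 CPM in both libraries 6 were higher. The immunoproteasome subunit PSMB9 was at 0.698 and 13.5 CPM (4.27), HLA-B at 1.99 and 34.6 CPM (4.11), the peptide transporter TAP1 at 3.24 and 20.6 CPM and its partner TAPBP at 31.8 and 128 CPM. B2M, the light chain, carried the list at 630 and 1663 CPM. HLA-B shares sequence with other class I heavy chain genes, so reads between them may be split unevenly. Interferon-stimulated genes were higher in 13 of 25 cases and lower in 0, with a median of 1.01, and 11 of the 25 reached 5 CPM only in the cytokine library, while 2 of the other 14 were higher. Among them were IFI27 (0.997 and 13.5 CPM), the ISG15-conjugating enzyme UBE2L6 (1.75 and 18.9 CPM), IFI6 (3.64 and 44.5 CPM) and IRF9 (3.14 and 30.1 CPM). OASL, at 0.0499 and 5.86 CPM, rested on few cells: 78 of 2799 cytokine G1 cells held its 361 UMIs, 1 of them 109, and 73.4% came from 10 cells. IFI27 was seen in 156 cytokine G1 cells, with 40.9% of its UMIs in 10 cells, and was at 0.454 and 8.04 CPM without the 10 cells with most of its UMIs in each library. In the gp130, STAT3 and C/EBP list 3 of 13 were higher and 1 lower. Of these 13, 2 reached 5 CPM only in the cytokine library, and 2 of the other 11 were higher and 1 lower. IL6ST, the gp130 receptor subunit, was at 1.05 and 19.7 CPM (4.24), CEBPD at 5.19 and 33.3 CPM, CEBPB at 39.4 and 120 CPM and CEBPA at 30.3 and 11.6 CPM.

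The kynurenine pathway, which breaks down tryptophan, was higher at 3 of its steps. TDO2, tryptophan 2,3-dioxygenase (chromosome 4, 155903696 to 155920406), which opens the ring of tryptophan, was at 11.8 CPM in vehicle and 582 CPM in cytokine G1 cells, 49.4-fold higher (5.63, 5.44 to 5.82). In vehicle 61.02% of its UMIs came from 10 cells, and without the 10 cells with most of its UMIs in each library it was at 4.64 and 554 CPM (6.90). KMO, kynurenine 3-monooxygenase (chromosome 1, 241532378 to 241595642), was at 11.1 and 255 CPM, 23.0-fold higher (4.52, 4.33 to 4.72). KYNU, kynureninase (chromosome 2, 142877664 to 143055833), was at 4.84 and 71.7 CPM, 14.8-fold higher (3.89, 3.599 to 4.19). These ratios differed little from those in S cells, where they were 5.91, 4.30 and 3.82, with differences of -0.28 (-0.56 to 0.01), 0.22 (-0.06 to 0.51) and 0.07 (-0.36 to 0.49). The other dioxygenase measured by these data, IDO1, had 4 UMIs in vehicle and 3 in cytokine G1 cells, too few for a ratio. AFMID, the formamidase of the next step, was at 9.87 and 5.09 CPM (-0.96, -1.22 to -0.69), which did not reach 2-fold, and QPRT, which leads on to NAD, at 22.3 and 29.0 CPM. SLC7A5, a subunit of the tryptophan transporter, was lower, at 9.63 and 3.12 CPM (-1.63, -1.92 to -1.33). Of all 13 measured pathway and transport genes 3 were higher and 1 lower, beside 4.44% and 4.43% of all genes, with a median of 0.02. Of the 13, 2 reached 5 CPM only in the cytokine library and 1 only in vehicle, and 2 of the other 10 were higher and 0 lower. Kynurenine is a ligand of the aryl hydrocarbon receptor. Of the 5 measured genes of that receptor and its targets none passed. At the shares of all genes few of any 5 would pass, so this count does not show whether the receptor responded. CYP1B1 was at 78.8 and 65.8 CPM (-0.26), TIPARP at 9.72 and 6.89 CPM and NQO1 at 721 and 1114 CPM.

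Luminal secretory and keratin genes were higher in 9 of 21 cases and lower in 0, with every ratio above 0 and a median of 0.95. Of the 19 that reached 5 CPM in both libraries 8 were higher, beside 4.44% of all genes. TFF1, a trefoil peptide of mucous epithelia, was at 71.9 and 1097 CPM (3.93), or at 41.3 and 1045 CPM without the 10 cells with most of its UMIs in each library. AZGP1 was at 215 and 1150.2 CPM, KRT7 at 306 and 1587 CPM and KRT8 at 379 and 1096 CPM. PIP, a secreted protein of apocrine glands, was at 5.14 and 90.9 CPM (4.15), with 35.9% of its vehicle UMIs in 1 cell and 1.51 and 83.4 CPM without the 10 cells with most of its UMIs in each library. KRT81 was at 0.698 and 21.5 CPM in G1 cells (4.95), and its ratio in S cells was -1.35. Of its cytokine UMIs 57.6% lay in 10 cells, and without the 10 cells with most of its UMIs in each library it was at 0 and 9.17 CPM. Factors of luminal identity were counted separately. Of 17 measured members of that list 1 was higher, CREB3L4 (127 and 256 CPM), and 0 lower. These counts lie near the shares of all genes (4.44% higher and 4.43% lower). GATA3 was at 629 and 325 CPM (-0.95) and FOXA1 at 171 and 145 CPM.

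Among secretory and metabolic genes the differences were small, and the shares called higher lay near those of all genes (4.44% higher). Of 31 genes of the unfolded protein response 2 were higher, the endoplasmic reticulum chaperones DNAJB9 (8.73 and 18.5 CPM) and SDF2L1 (388 and 863 CPM), while 30 had a ratio above 0 and the median was 0.50, beside 0.15 in S cells. Of 26 cholesterol and fatty acid genes 2 were higher, HMGCS1 (30.7 and 82.6 CPM, 2.69-fold) and FDFT1, squalene synthase (38.4 and 78.5 CPM), and the median was 0.41, beside -0.04 in S cells. In amino acid supply 2 of 20 were lower, beside 4.43% of all genes lower. They were PHGDH, which opens serine synthesis, at 60.1 and 15.8 CPM (3.82-fold lower) and the glutamine carrier SLC1A5 at 76.2 and 37.0 CPM. None of 23 glycolysis and hypoxia genes, 38 nuclear respiratory chain genes, 20 heat shock genes or 13 mitochondrially encoded genes passed in either direction, with medians of 0.01, -0.18, -0.07 and -0.12.

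Single genes of other groups stood out by level. The ferritin heavy chain FTH1 was at 12508 and 29160.5 CPM (2.33-fold higher), whereas the metallothioneins MT2A (2216 and 466 CPM) and MT1X (61.2 and 20.7 CPM) and the heme oxygenase HMOX1 (8.23 and 3.80 CPM) were lower. These were the 4 of 21 redox and ferritin genes that passed, 1 higher and 3 lower, beside 4.44% and 4.43% of all genes. Of 20 AP-1 and immediate early genes 1 was higher, the RNA-destabilising ZFP36 (48.8 and 100 CPM), and 2 were lower, its relative ZFP36L2 (326 and 77.0 CPM) and the phosphatase DUSP2 (24.2 and 6.27 CPM). Counts this small cannot be set apart from the shares of all genes. In the adhesion list 6 of 15 were higher and 0 lower, beside 4.44% of all genes higher. Of the 15, 3 reached 5 CPM only in the cytokine library and so had to have a ratio above 0, and 4 of the other 12 were higher. Fibronectin, FN1 (0.249 and 8.01 CPM), and the laminin chain LAMB3 (0.748 and 6.94 CPM) were among those 3. The complement inhibitor CD55 (7.13 and 29.7 CPM) and the anti-phagocytic signal CD47 (17.0 and 68.2 CPM) passed 5 CPM in both libraries. MMP13, a collagenase, was at 0.648 and 39.9 CPM.

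For some genes the ratio in G1 cells lay far from that over all cells. G1 cells are part of all cells, so the values are given side by side without a test. Outside the phase lists the ratio in G1 lay furthest above that over all cells for HIST1H4C (-1.74 in G1, -3.30 over all cells), the histone variant H2AFX (-0.79 and -1.88), BTG3 (1.65 and 0.59), the ubiquitin-conjugating enzymes UBE2S (-0.89 and -1.92) and UBE2T (-0.37 and -1.40) and DUT (-0.59 and -1.45). The reverse held for CENPW (-3.84 in G1, -3.11 over all cells), HIST1H2BJ (-2.38 and -1.59), HIST1H2AC (-0.27 and 0.62), S100A8 (10.33 and 11.12) and S100A9 (8.61 and 9.498). For S100A8 and S100A9 this rested on the few vehicle G1 cells named above, since without the 10 cells with most UMIs of the gene in each library the ratios in G1 were 12.17 and 10.70. For HIST1H4C the ratio within S cells was -1.65 and differed little from that in G1. Genes near the 2-fold limit changed sides without moving far: SDF2L1 (1.15 and 0.94), RAC1 (1.03 and 0.94) and the signal peptidase subunit SEC11C (1.03 and 0.93) passed in G1 only, and KRT19 (0.99 and 1.30), KRT18 (0.95 and 1.08) and BST2 (0.98 and 1.16) over all cells only.

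Levels per cell showed whether the differences ran through the G1 cells or came from a few. Each G1 cell was thinned to 14000 UMIs, which kept 963 vehicle and 2750 cytokine cells and left out 69 and 49 shallower ones. PCLAF had at least 1 UMI in 95.2% of vehicle G1 cells (93.7% to 96.5%) and in 33.5% of cytokine G1 cells (31.8% to 35.3%), with medians of 6 and 0 UMIs. Cells with 5 or more PCLAF UMIs made up 66.5% and 3.53%. STMN1 was seen in 96.9% and 48.9% of cells with medians of 8 and 0 UMIs, CENPW in 68.3% and 8.73%, PTTG1 in 58.0% and 6.44%, and TK1 in 52.5% and 8.36%. For PCLAF, CENPW, PTTG1 and TK1, most vehicle G1 cells thus held a transcript and most cytokine G1 cells showed none at this depth. TDO2 was seen in 4.05% of vehicle (2.90% to 5.49%) and 67.4% of cytokine G1 cells (65.6% to 69.2%), with a wide spread in the latter, from 32.6% of cells at 0 to 27.5% at 10 or more UMIs and a highest value of 176. KMO was more even, at 13.7% and 90.4% of cells and 19 UMIs at most, and KYNU was seen in 6.23% and 49.8%. S100A9 was seen in 4.36% and 98.5% of cells and NFKBIA in 62.4% and 99.9%. LTB and SAA1 had a UMI in 0 of 963 vehicle G1 cells, which allows a share of cells with a UMI of up to 0.312% (3 of 963), and in 46.1% and 51.5% of cytokine G1 cells. The inhibitors CDKN1A (16.6% and 17.6%) and CDKN1B (35.6% and 37.3%) were seen in like shares. No other cell type in these libraries gives the share that free RNA would make, so its part in the low vehicle shares was not tested.

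**Figure D4:**
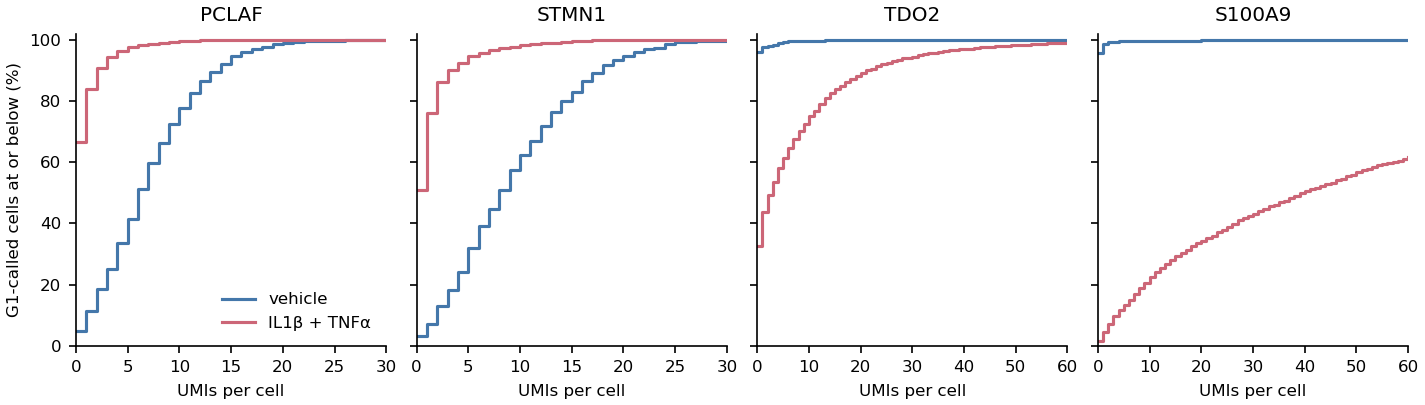
Cumulative percent of G1 cells at or below each number of UMIs per cell (linear axes) for PCLAF, STMN1, TDO2 and S100A9, after thinning every cell to 14000 UMIs, with 963 vehicle and 2750 cytokine cells. For PCLAF and STMN1 the cytokine curve starts high, at 66.5% and 51.1% of cells with 0 UMIs, and for TDO2 and S100A9 the vehicle curve does.

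The authors' clusters divided the G1 cells unevenly. Clusters 0, 1, 3, 4 and 5 held 139, 311, 168, 194 and 220 vehicle G1 cells and 1083, 711, 581, 303 and 118 cytokine G1 cells, while cluster 2 held 0 and 3. PCLAF was lower in the cytokine library in all 5 clusters, at 382 to 859 CPM in vehicle and 30.4 to 404 CPM in cytokine G1 cells. Cluster 5 stood apart. In it PCLAF was at 859 and 404 CPM, CENPW at 293 and 144 CPM and PTTG1 at 518 and 266 CPM, whereas PTTG1 lay between 2.64 and 3.62 CPM in the cytokine cells of the other clusters. Cluster 5 made up 21.3% of vehicle and 4.22% of cytokine G1 cells, and without it, an alternative chosen after the data were seen, 390 genes were higher and 405 lower. TDO2 was higher in each of the 5 clusters, with log2 ratios from 4.32 to 7.02, and ranged from 265 to 790 CPM between the clusters of cytokine G1 cells. KMO (3.89 to 4.70), KYNU (3.20 to 4.71) and NFKBIA (3.44 to 4.27) varied less between clusters, and BTG3 lay between 1.32 and 1.90.

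**Figure D5:**
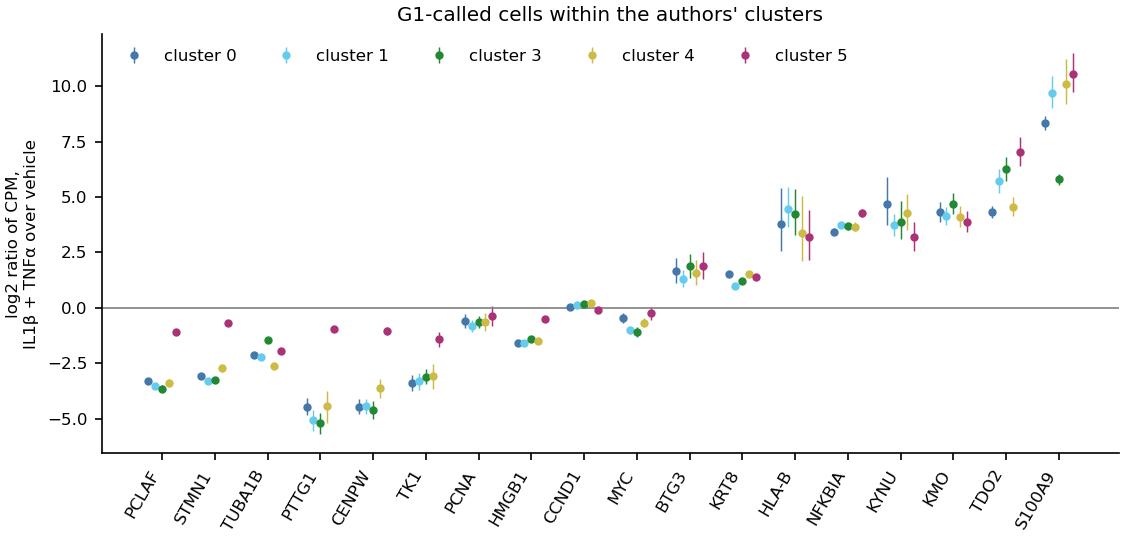
Log2 ratio of CPM, cytokine over vehicle, of 18 genes in the G1 cells of the authors' clusters 0, 1, 3, 4 and 5, with exact 95% intervals that cover counting error only. PCLAF, STMN1, TUBA1B, PTTG1, CENPW, TK1 and PCNA lie below 0 in all 5 clusters. All of these but TUBA1B (-1.94 in cluster 5 and -1.45 in cluster 3) lie nearest to 0 in cluster 5, where PTTG1 is at -0.96 against -5.21 to -4.42 in the others. CCND1 lies between 0.02 and 0.20 in clusters 0, 1, 3 and 4 and at -0.10 in cluster 5, and BTG3 lies above 0 in all 5.

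Since the vehicle G1 cells lay nearer to the score limit, the comparison was repeated on the G1 cells whose S and G2/M scores were both under the medians of vehicle G1 cells, which kept 328 vehicle and 2422 cytokine cells. The median log2 ratio was then -1.36 for replication genes and -1.75 for mitosis genes, beside -1.49 and -2.10 in all G1 cells. The S and G2/M lists still had medians of -1.02 and -1.33, beside -1.30 and -1.55 in all G1 cells, so this limit did not even out their genes. PCLAF was at 461 and 43.0 CPM (-3.42), STMN1 at 540 and 75.2 CPM (-2.84) and PTTG1 at 109 and 7.02 CPM (-3.96). PCNA, 1 gene of the S list, was at 25.1 and 22.2 CPM (-0.18, -0.40 to 0.05). TDO2 was at 16.0 and 601 CPM (5.23). The acute phase and cytokine lists had lower medians than in all G1 cells, at 6.40 and 4.77 beside 7.78 and 5.79. Medians were 1.52 for MHC class I, 1.04 for interferon-stimulated genes, 0.54 for the unfolded protein response and -0.35 for MYC target and ribosome biogenesis genes.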

How the data were processed

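Single-cell RNA of 2 cultures of MDA-MB-453 cells, vehicle and IL1β with TNFα, was analysed, with cells assigned to libraries by the sample column of the cell table. The authors deposited UMI counts per gene and cell, made by Cell Ranger 3.1.0 on GRCh38 per the submitters' processing notes, without normalization. Per the study's methods, Seurat 4.0.4 kept cells under 50000 UMIs, between 3000 and 5000 genes and under 15% mitochondrial UMIs. An upper limit on genes can take more cells from a dividing culture, and cells it removed were not used. For each cell the authors also deposited the percent of mitochondrial UMIs, an S score, a G2/M score, a phase call and a cluster number, whose making is not given in the sources used here.

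G1 cells were taken from the deposited phase call, and their counts were summed per library in Python 3.11.15 (numpy 2.4.6, pandas 2.3.3, scipy 1.17.1). Ratios carry exact conditional binomial intervals, CPM exact Poisson and shares Clopper-Pearson intervals, all for counting error only. A library without a UMI was set to 3 UMIs for list medians (0.150 CPM in vehicle G1 cells). No test between conditions was made, and no doublet caller was run. The calculations were tested on simulated data.

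The cells and gene lists were chosen with earlier results of these data known. Named genes were a fixed set of 12, the 12 largest and 12 smallest ratios at 20 CPM or more, the 6 largest ratios of each list with its most abundant member, and the 10 genes whose ratio or call differed most between G1 and all cells, in each direction. Genes outside that rule were chosen after their values were seen. Alternatives were TMM (edgeR 4.0.16) and median of ratios (DESeq2 1.42.0) scaling, totals without ribosomal and mitochondrial genes, measured limits of 1 and 20 CPM, means of per-cell CPM, a mitochondrial limit of 10%, phase called again with scanpy 1.11.5 on counts thinned to 14000 UMIs, low scores only, and other thinning.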

Additional observations from a re-analysis of the deposited data

How the results depend on the processing

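Under 9 other settings for the ratios and 1 chosen after seeing the data (without cluster 5), no named gene that had passed the 2-fold rule changed its sign. The scalings and totals shift ratios by far less than 2-fold and the CPM limits leave them unchanged, so these settings could not change such a sign. Of 246 named genes, 139 had a ratio outside its main interval by TMM, 143 by median of ratios and 93 with the smaller totals. With lower scores only there were 121, with the phase called again 59, without cluster 5 also 59, and with per-cell means 32. The number of genes passing moved with the limit for a measured gene and with the totals. At 1 CPM 662 genes were higher and 805 lower, with 17 cytokines and chemokines and 23 interferon-stimulated genes higher and 50 mitosis genes lower. At 20 CPM 225 were higher and 141 lower, with 7 NF-κB subunits and feedback genes and 5 interferon-stimulated genes higher, and 6 replication and 11 mitosis genes lower. These counts change because the number of genes measured changes. Once ribosomal and mitochondrial genes left the totals 637 genes were lower. Calling the phase again on thinned counts put 25.4% of vehicle and 86.6% of cytokine cells in G1, and 393 genes were then higher and 360 lower. The vehicle call was the less stable. Among deposited G1 cells kept by thinning, 675 of 963 vehicle and 2686 of 2750 cytokine cells were G1 again. TDO2 was seen in 60.1% of cytokine G1 cells at 7500 UMIs and in 72.0% without thinning, and with at least 2 UMIs in 2.18% of vehicle and 56.4% of cytokine G1 cells. Under the other settings the counts over all genes kept within 1.5 times their value, while counts of small lists moved further, and by TMM 5 unfolded protein response genes and 5 of the gp130 list were higher and 4 MYC target and ribosome biogenesis genes lower. Shares of cells with a UMI moved with depth for other genes too. At 7500 UMIs vehicle shares were 7.36% for KMO, 3.49% for KYNU and 19.7% for CDKN1B, and the cytokine share of CENPW was 5.64%. With at least 2 UMIs the cytokine shares of TK1 and PCLAF were 0.8% and 16.1%. No paired analysis was possible because each condition had 1 library. Depth limits genes under 5 CPM, where 1 UMI in vehicle G1 cells is 0.0499 CPM.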

Other observations

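In the vehicle library a single cell, called S and therefore outside the G1 comparison, held most UMIs of several interferon-stimulated genes. It had 119 of the 124 OASL UMIs of the library, 103 of 119 of IFIT1, 70 of 73 of IFIT2, 121 of 128 of IFIT3 and 28 of 45 of CCL5, at 24724 UMIs and 4701 genes in all. The log2 ratio of OASL was -3.01 in S cells and 6.88 in G1 cells, and that of IFIT1 -0.82 and 5.01. In vehicle G1 cells OASL had 1 UMI.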
